A study of Mus musculus with 12 samples.

Results

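Motoneurons were compared with sciatic nerve in mice without intact Gdap1, using the 3 arrays of Gdap1 knock-out motoneurons and the 3 arrays of Gdap1 knock-out sciatic nerve, 6 of the 12 arrays of the series. The arrays were taken by tissue and genotype labels alone, and all 45037 probe sets other than Affymetrix controls entered the comparison. The knockout lacks exon 5 of Gdap1, the mice were untreated and 2 months old, and each array is labelled a biological replicate. The labels used here give neither strain nor sex, and do not say whether the deletion covers all tissues. The motoneurons were isolated by laser dissection, and the nerve was a lysate of the whole tissue with every cell type it holds. Per the design text RNA came from 5 mice, and 3 samples per tissue and genotype were kept for the amount and quality of their RNA. Whether a nerve array and a motoneuron array share a mouse is not stated. The other 6 arrays hold the same tissues of wild type mice of the same age and are used only beside the knockout values. Motoneuron and nerve RNA were extracted with different column kits, so tissue and extraction cannot be told apart in any value below. In such samples fewer cells of a type and less RNA per cell cannot be told apart either.

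Spinal motoneurons have their nucleus and most of their messenger RNA in the ventral horn of the spinal cord, while their axons run through the sciatic nerve. The nerve itself is built of Schwann cells, which wrap axons in myelin, and of fibroblasts, perineurial sheath, vessels, resident immune cells and fat. GDAP1 is a protein of the outer mitochondrial membrane that takes part in mitochondrial fission, and mutations in its gene cause Charcot-Marie-Tooth disease, an inherited neuropathy of motor and sensory axons or of their myelin.

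Values are the authors' log2 expression values per probe set. Array medians lay between 6.54 and 6.59 in knockout motoneurons and between 8.31 and 8.40 in knockout nerve, so the tissues sit on different scales. A difference is motoneurons minus nerve in log2 units, given with the standard error of a limma fit after ±, and p-values are adjusted over all 45037 probe sets. A gene was read from its probe set with the highest mean over the 6 arrays. Its other probe sets can hold no direction or another one, which is stated below for only some genes. A direction is said to hold when the adjusted p is below 0.05 with the same sign on the deposited values, after quantile normalization of the 6 arrays together and after centring each array on its median; "higher" and "lower" below are used of genes that meet this, unless a scale is named. The median difference of all 18193 genes was -0.86 as deposited, 0.25 after joint quantile normalization and 0.92 after centring, so a difference near these sizes changes sign with the scale.

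On the deposited scale 3439 genes were higher in motoneurons (18.9%) and 11663 were lower (64.1%). Under all 3 scalings 3438 genes were higher (18.9%) and 3684 lower (20.2%). Of the 3439 genes higher as deposited 3438 held, and of the 11663 lower ones 3684 held. Both other scalings raise the median difference, so the rule seldom removes a higher call and tests mainly the lower ones. A list with none lower can therefore hold genes that were lower as deposited. Of single probe sets, 15.2% were higher and 67.5% lower as deposited, and 15.2% and 24.4% held. Of all probe sets called, 18.4% were higher in motoneurons as deposited, 54.7% after joint quantile normalization and 69.5% after centring. The 3 motoneuron and the 3 nerve arrays did not overlap in 15509 genes (85.2%), so a gap between the groups is the rule on these arrays and is no mark of a gene. Arrays of a group correlated at 0.989 to 0.993 across probe sets, and arrays of different tissues at 0.741 to 0.764. The 3' to 5' signal gap of the Actb control probe sets was 1.50 to 1.67 in motoneurons and 0.72 to 0.86 in nerve, while that of Gapdh was 0.82 to 0.91 and 0.73 to 0.88, so the first control separated the tissues and the second did not clearly do so. The part of RNA quality in the differences was not tested. The 10th percentile of an array was 3.43 to 3.48 in motoneurons and 4.45 to 4.49 in nerve. A value near or below it is not shown to be above background, so the exact size and rank of a difference taken against such a value depend on how low that probe set reads without signal.

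Sex-linked transcripts were not balanced between the tissues. Xist, the RNA of the inactive X chromosome, read 9.76, 3.97 and 9.57 in the motoneuron arrays and 5.16, 6.74 and 13.31 in the nerve arrays (replicates 1 to 3, the order used throughout). Eif2s3y, from the Y chromosome, read 3.23, 10.95 and 3.19 in the motoneuron arrays and 12.71, 12.58 and 5.39 in the nerve arrays, so motoneuron replicate 2 and nerve replicate 3 each differed from the other arrays of their group. In replicate 1 Xist was high in the motoneuron array and Eif2s3y in the nerve array. In wild type, which enters the tissue by genotype test, Eif2s3y read 3.22, 3.80 and 3.31 in motoneurons and 12.77, 4.71 and 12.76 in nerve. With Xist as a covariate 17975 probe sets held their direction, against 17849 without it. The tissue by genotype test with that covariate called 0 probe sets, as without it.

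The gene furthest above nerve was Trhr, the receptor for thyrotropin-releasing hormone, a peptide that excites spinal motoneurons. It read 12.45, 12.80 and 12.30 in the motoneuron arrays and 2.86, 2.55 and 2.32 in the nerve arrays, a difference of 9.94 ± 0.22 (adjusted p = 4.74e-09). Gabra5, a GABA receptor subunit, followed with 12.26, 12.37 and 12.24 in the motoneuron arrays and 3.39, 2.80 and 2.61 in the nerve arrays (difference 9.35 ± 0.23). In both genes all 3 motoneuron arrays sat more than 8 log2 units above every nerve array, and the nerve values lay below the 10th percentile of their arrays, so first and second place are not settled. The other 10 of the 12 largest positive differences ran from 8.32 to 8.86 and included Chodl, a marker of fast motoneurons, Kcnc1, a potassium channel of fast-spiking neurons, Glra1, the adult glycine receptor alpha subunit, and Cadps, which primes dense-core vesicles. Lamp5, Tmem130, Fstl5, Olfm3, Smim17 and A930009L07Rik complete the 12. Fstl5 read 4.16, 3.15 and 2.69 in nerve, and Olfm3 read 5.05, 3.01 and 2.84, with nerve replicate 1 the highest in each.

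Of 15 regulators of motoneuron identity, 9 were higher in motoneurons and 3 lower, with a median difference of 2.68 as deposited and 4.13 after joint quantile normalization. Mnx1, the homeodomain factor that consolidates motoneuron fate, read 9.32, 9.50 and 9.37 in the motoneuron arrays and 3.35, 3.23 and 3.25 in the nerve arrays (difference 6.13 ± 0.18; adjusted p = 1.38e-08). Lhx4, a LIM factor of motoneuron progenitors and their descendants, read 12.33, 12.77 and 12.33 in the motoneuron arrays and 6.48, 5.86 and 5.73 in the nerve arrays (difference 6.45 ± 0.23). Isl1, its LIM partner, read 11.22, 10.95 and 11.17 in the motoneuron arrays and 6.70, 6.82 and 5.46 in the nerve arrays (difference 4.78 ± 0.34). The groups were far apart for all 3 factors, although Isl1 in nerve replicate 3 lay more than 1 unit below the other nerve arrays. Esrrb and Esrrg, orphan receptors of motoneuron subtypes, differed by 5.36 ± 0.20 and 5.68 ± 0.27.

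The 3 lower regulators are known from other cells as well as from motoneurons. Ebf2, a helix-loop-helix factor known from motor columns and from mesenchymal and fat precursors, read 4.57, 4.20 and 3.83 in the motoneuron arrays and 13.40, 13.42 and 13.33 in the nerve arrays (difference -9.18 ± 0.21). Foxp1, which sets limb motor column identity and is widely expressed, read 10.92, 11.36 and 10.92 in the motoneuron arrays and 13.28, 13.37 and 13.45 in the nerve arrays (difference -2.30 ± 0.13), and all 8 of its probe sets were lower. Nr2f2, a nuclear receptor of vessels and mesenchyme as well as neurons, differed by -4.12 ± 0.18. Ebf2 stayed below 5 in every motoneuron array, whereas Foxp1 was near 11 there, so the lower call of Foxp1 is a difference between 2 levels well above the array median.

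Of 11 genes of cholinergic transmission, 7 were higher and none lower. Slc18a3, which loads acetylcholine into vesicles, read 12.32, 12.71 and 12.28 in the motoneuron arrays and 5.04, 5.72 and 5.37 in the nerve arrays (difference 7.06 ± 0.22; adjusted p = 1.73e-08). Slc5a7, which takes choline back up, read 9.81, 10.50 and 9.79 in the motoneuron arrays and 5.23, 5.08 and 5.04 in the nerve arrays (difference 4.91 ± 0.23). Ache, which breaks acetylcholine down, read 13.43, 13.72 and 13.40 in the motoneuron arrays and 6.89, 7.04 and 6.65 in the nerve arrays (difference 6.66 ± 0.15). All 3 were highest in motoneuron replicate 2, as were 7152 of all 18193 genes. The neuronal nicotinic subunits Chrna4, Chrna7 and Chrnb2 were higher by 3.14 to 3.67, Chrna7 in only 1 of its 2 probe sets. For none of these genes did the groups overlap, as for 85.2% of all genes. Chat, the enzyme that makes acetylcholine is the defining marker of these cells, and it held no direction. Its single probe set read 4.59, 4.97 and 4.19 in the motoneuron arrays and 4.96, 5.36 and 5.18 in the nerve arrays, a difference of -0.59 ± 0.24 as deposited, 0.98 after joint quantile normalization and 1.19 after centring. By this probe set Chat lay below the array median in all 6 arrays, and it was named here because it is the defining marker, after its value was seen.

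**Figure D1:**
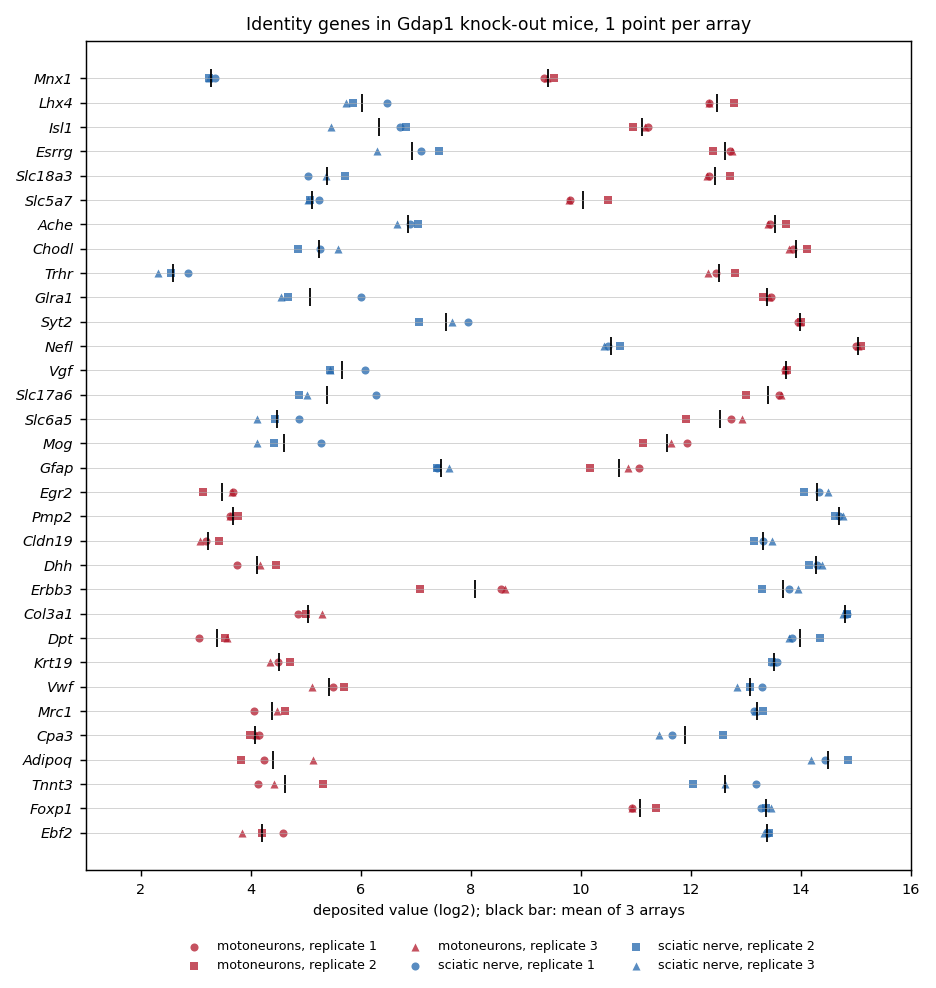
Deposited log2 values (horizontal axis) of 32 genes that mark motoneurons, spinal neighbours or nerve cells, in the 3 motoneuron (red) and 3 nerve (blue) arrays of knockout mice; marker shape gives the replicate and black bars the group mean. The 32 were picked for the figure and do not include Chat, whose groups overlap. The groups do not overlap for any of the 32, as for 85.2% of all genes. They run from Trhr at 12.30 to 12.80 in motoneurons and 2.32 to 2.86 in nerve to Foxp1, with a difference of -2.30.

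Markers of motoneuron subtypes were higher in 12 of 16 cases and lower in 2. Calcb, a calcitonin gene-related peptide, read 13.87, 14.10 and 13.83 in the motoneuron arrays and 6.06, 5.26 and 5.57 in the nerve arrays (difference 8.30 ± 0.21). Sv2a and Sv2b, vesicle glycoproteins, were higher by 6.03 and 6.45, and Rbfox3, the NeuN antigen, by 6.29. Igf2, a growth factor, and Npnt, a matrix protein, are known as markers of motoneuron groups but were lower, at -7.60 ± 0.24 and -5.97 ± 0.25.

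Receptors for transmitters and peptides formed the list with the highest median: 23 of 25 were higher and none lower, at a median of 3.55 as deposited. Glra1 read 13.45, 13.30 and 13.41 in the motoneuron arrays and 6.00, 4.67 and 4.54 in the nerve arrays (difference 8.32 ± 0.35). Htr2c, a serotonin receptor that raises motoneuron excitability, read 10.83, 10.75 and 10.95 in the motoneuron arrays and 3.75, 2.72 and 2.86 in the nerve arrays (difference 7.73 ± 0.28). Grm5, a metabotropic glutamate receptor, read 11.04, 9.70 and 11.09 in the motoneuron arrays and 4.38, 3.48 and 4.63 in the nerve arrays (difference 6.44 ± 0.43). Within motoneurons Grm5 was lowest in replicate 2 by more than 1 unit, while Htr2c and Glra1 stayed close to 1 level in the 3 arrays. Gria2, the AMPA receptor subunit that limits calcium entry, differed by 6.90 ± 0.36.

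Of 28 voltage-gated channels 19 were higher and 2 lower. Scn1a, a neuronal sodium channel, read 13.77, 13.73 and 13.58 in the motoneuron arrays and 7.32, 4.95 and 5.71 in the nerve arrays (difference 7.70 ± 0.50). Kcnq3, Kcnma1 and Kcnc1, potassium channels of the M-current, the calcium-activated current and fast repolarization, were higher by 5.84, 5.20 and 8.41. Of the 5 probe sets of Kcnma1, 2 were higher. The 2 exceptions were Scn7a, a sodium channel of Schwann cells, at -7.92 ± 0.16, and Scn3b, a sodium channel beta subunit, at -6.69 ± 0.25. Scn7a read 14.30, 14.27 and 14.47 in nerve, near the top of the array's range.

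Structural genes of the axon were high in the cell body preparation. Of 25 cytoskeletal genes 20 were higher and none lower. Nefl, the light neurofilament, read 15.00, 15.09 and 15.03 in the motoneuron arrays and 10.50, 10.71 and 10.41 in the nerve arrays (difference 4.50 ± 0.09; adjusted p = 2.9e-09). Nefm, Nefh and Ina, its assembly partners, were higher by 5.98, 4.90 and 7.77, and Tubb3, neuronal tubulin, by 6.51 ± 0.10. Nerve still gave 10.41 to 10.71 for Nefl, above its array medians, while Ina there spread from 5.41 to 7.16. Of 29 axonal transport genes 19 were higher and 1, the mitochondrial adaptor Trak2, was lower, at -3.29. Dync1i1, a neuronal dynein chain, differed by 6.18 ± 0.17, and Snph, which anchors axonal mitochondria, by 4.07 ± 0.14.

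Genes of vesicle release and of secreted peptides went the same way with named exceptions. Of 26 vesicle genes 19 were higher, led by Syt2, the calcium sensor of motor terminals, at 13.95, 14.01 and 13.98 in the motoneuron arrays and 7.94, 7.05 and 7.65 in the nerve arrays (difference 6.43 ± 0.21). The 3 lower ones were Unc13b at -5.25 ± 0.32, Stx1a at -3.61 ± 0.38 and Rab3d at -2.56 ± 0.22. Stx1a read 6.35, 7.91 and 6.39 in motoneurons, so replicate 2 lay more than 1 unit above the other arrays of its group. Of 19 granins and peptides 12 were higher and none lower, with Vgf at 8.07 ± 0.19, Scg2 at 7.92 ± 0.25 and Chgb at 6.21 ± 0.20. Vgf, the precursor of peptides released by an activity-regulated route, read 13.71, 13.74 and 13.70 in motoneurons, nearly 1 level in the 3 arrays.

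The 5' windows of some of these genes are shown because members moved together and because RE1, the element bound by the repressor REST in cells that are not neurons, is a classical feature of neuronal genes. The windows run from 250 bases before to 50 after a RefSeq start (GRCm38.p6). Capitals mark 1 of the parts of the RE1 consensus, searched as TTCAGCACC or GGACAGCGC on both strands, in the secretogranin Scg2 (chr1:79439977-79440276, minus strand), the synapsin Syn1 (chrX:20920869-20921168, minus strand) and Gria2 (chr3:80802786-80803085, minus strand).
Scg2: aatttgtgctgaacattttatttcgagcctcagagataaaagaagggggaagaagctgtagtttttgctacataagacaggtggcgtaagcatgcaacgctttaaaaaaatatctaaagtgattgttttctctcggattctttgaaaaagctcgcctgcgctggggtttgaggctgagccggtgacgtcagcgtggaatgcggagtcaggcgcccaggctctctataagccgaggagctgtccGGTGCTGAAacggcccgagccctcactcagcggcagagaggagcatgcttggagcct
Syn1: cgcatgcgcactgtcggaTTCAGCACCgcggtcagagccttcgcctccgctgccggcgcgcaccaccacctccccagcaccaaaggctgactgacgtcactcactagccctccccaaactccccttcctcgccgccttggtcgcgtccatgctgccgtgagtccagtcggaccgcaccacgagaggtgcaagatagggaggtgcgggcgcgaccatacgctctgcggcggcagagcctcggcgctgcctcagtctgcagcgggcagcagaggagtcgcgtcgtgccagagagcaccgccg
Gria2: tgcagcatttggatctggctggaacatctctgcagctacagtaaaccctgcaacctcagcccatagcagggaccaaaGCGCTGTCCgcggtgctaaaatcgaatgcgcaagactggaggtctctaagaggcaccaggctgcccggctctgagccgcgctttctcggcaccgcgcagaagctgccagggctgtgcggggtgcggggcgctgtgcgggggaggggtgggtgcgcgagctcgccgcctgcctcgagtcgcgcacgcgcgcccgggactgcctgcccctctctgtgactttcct
In 18109 windows of 14452 measured genes, either part occurred in 0.983%. It occurred in 1.46% of the 3558 windows of genes higher in motoneurons and in 0.719% of the 3616 windows of lower genes. For TTCAGCACC alone the shares were 0.843% and 0.221%, or 30 and 8 windows, against 0.414% of all. For GGACAGCGC alone they were 0.759% and 0.498%, or 27 and 18 windows, against 0.596% of all. Syn1 read 13.22, 13.38 and 13.27 in the motoneuron arrays and 8.64, 8.54 and 8.87 in the nerve arrays (difference 4.60 ± 0.12), and Scg2 13.06, 12.63 and 13.03 in the motoneuron arrays and 5.50, 4.70 and 4.75 in the nerve arrays. Genes have up to several windows, which can overlap, and these shares are descriptions of letters, not of binding.

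The windows of genes lower in motoneurons held fewer CpG dinucleotides, with a median of 13 against 18 for higher genes and 16 for all. For genes lower by more than 4 units the median was 9, and TATAAA on either strand occurred in 12.8% of their windows, against 8.61% for genes higher by more than 4 and 9.77% of all. The cyclic AMP response element TGACGTCA occurred in 0.949% and 3.07% of these windows (14 and 15 windows), against 2.49% of all. The EGR core GCGNGGGCG occurred in 8.4% and 11.3%, against 8.7%. Other letters were searched too. In the same order CAGCTG gave 20% and 19.5%, against 16.4% of all, and TAATTA 3.52% and 3.48%, against 3.41%. ACAAAG gave 16.3% and 13.3%, against 15.9%, and CCAAT 33.2% and 36.3%, against 37.4%. From the 12 genes furthest above motoneurons in nerve, 2 matrix genes were picked and are shown with TATAAA in capitals. They are Ogn (chr13:49607765-49608064, plus strand, 4 CpG) and Dpt (chr1:164796413-164796712, plus strand, 4 CpG). In Ogn TATAAA is read on both strands. Counted from the start, the first match begins at -229 in Ogn and at 12 in Dpt. Whether these letters act as promoter elements was not tested.
Ogn: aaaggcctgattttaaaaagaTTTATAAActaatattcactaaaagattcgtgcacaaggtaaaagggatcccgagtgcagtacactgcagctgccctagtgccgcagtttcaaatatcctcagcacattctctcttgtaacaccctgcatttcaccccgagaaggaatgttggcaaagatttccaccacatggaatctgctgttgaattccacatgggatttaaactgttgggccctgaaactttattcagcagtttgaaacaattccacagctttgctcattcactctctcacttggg
Dpt: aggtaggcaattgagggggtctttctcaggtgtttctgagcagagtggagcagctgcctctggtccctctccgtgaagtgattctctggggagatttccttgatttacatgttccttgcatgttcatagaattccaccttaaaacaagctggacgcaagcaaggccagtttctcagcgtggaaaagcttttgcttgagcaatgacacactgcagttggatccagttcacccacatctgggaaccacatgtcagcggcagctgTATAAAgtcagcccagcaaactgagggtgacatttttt
Syn1 and Gria2, by comparison, held 33 and 26 CpG, and Scg2 held 16.

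Transcripts known from cells next to motoneurons in the spinal cord were also read in the laser-dissected samples. Which cells they came from was not tested. Of 19 interneuron genes 11 were higher than in nerve and none lower. The other 8 held no direction, and 4 of them were called lower as deposited. Slc17a6, which loads glutamate into vesicles, read 13.59, 12.99 and 13.63 in the motoneuron arrays and 6.27, 4.88 and 5.01 in the nerve arrays (difference 8.02 ± 0.36). Slc6a5, the glycine transporter of inhibitory neurons, read 12.73, 11.92 and 12.92 in the motoneuron arrays and 4.87, 4.45 and 4.11 in the nerve arrays (difference 8.05 ± 0.30). Gad1, which makes GABA, read 9.93, 8.56 and 10.12 in the motoneuron arrays and 4.89, 2.95 and 2.56 in the nerve arrays (difference 6.07 ± 0.62), and Slc32a1, the inhibitory vesicle transporter, differed by 7.56 ± 0.32. These levels were well above the motoneuron array medians. Motoneuron replicate 2 was the lowest of its group in 15 of the 19 genes, against 6697 of all 18193 genes.

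Of 17 oligodendrocyte genes 9 were higher and 1, Aspa, was lower (-3.83 ± 0.13). Mog, a protein of central myelin, read 11.93, 11.12 and 11.63 in the motoneuron arrays and 5.26, 4.43 and 4.10 in the nerve arrays (difference 6.96 ± 0.33). Ermn and Opalin, also of central myelin, were higher by 5.54 and 3.79, and Olig2, the lineage factor, by 4.65. Replicate 2 was again the lowest motoneuron array in 12 of the 17, against 6697 of all 18193 genes. Of 19 astrocyte genes 7 were higher and 4 lower, against 18.9% and 20.2% of all genes, and 8 held no direction. Aqp4, a water channel, read 10.86, 10.73 and 10.89 in motoneurons and 6.35, 2.76 and 6.70 in nerve, where replicate 2 lay more than 3 units below the others. Gfap, Slc1a2 and Mlc1 were higher by 3.24, 4.01 and 4.55, while Slc1a3, Aldh1l1, Gja1 and Sox9, which cells of the nerve also express, were lower, at -4.97, -3.31, -2.36 and -2.28.

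**Figure D2:**
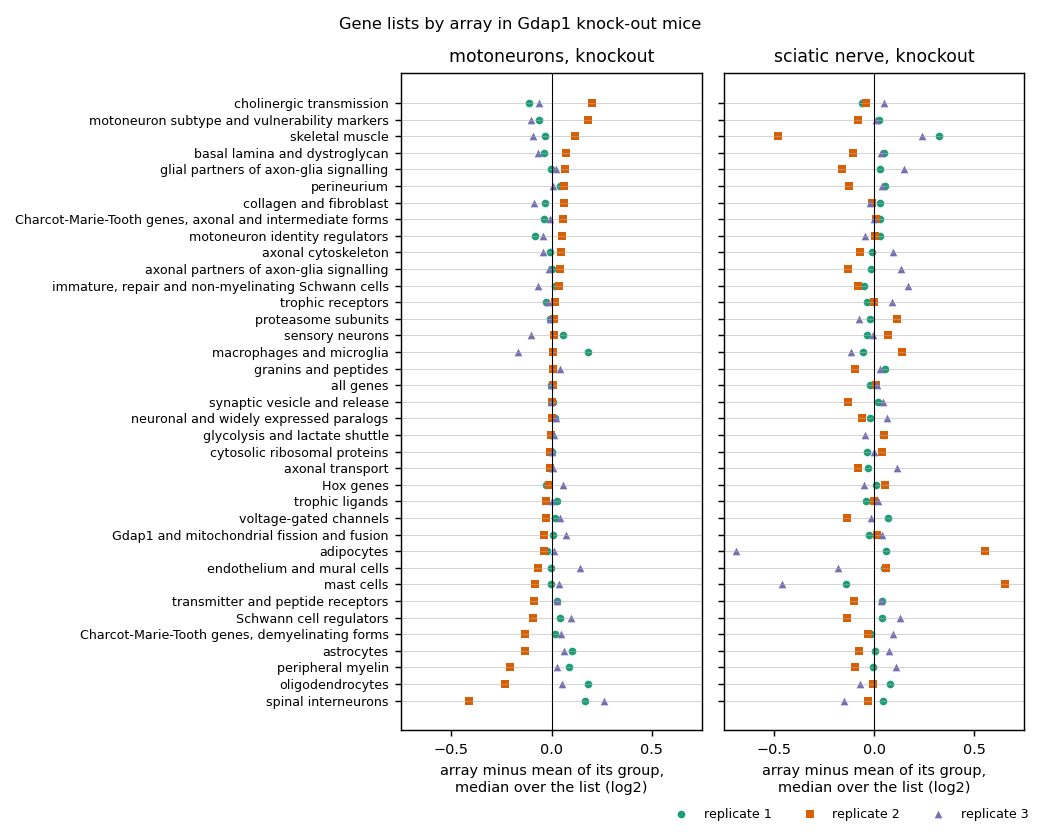
Median deviation of a list's genes from the mean of their group (log2, horizontal axis) for each of the 3 arrays of knockout motoneurons (left) and knockout nerve (right), with lists ordered by motoneuron replicate 2. Replicate 2 of the motoneurons lies 0.41 below its group mean for interneuron genes and 0.20 above it for cholinergic genes; replicate 2 of the nerve lies 0.65 above for mast cells and 0.48 below for skeletal muscle.

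The 3 motoneuron arrays thus differed over lists that mark neighbouring cells and over others, such as cholinergic genes. Over the interneuron list, replicate 2 had a mean level of 7.74, against 8.51 and 8.53 in replicates 1 and 3, and over cholinergic genes 8.94 against 8.69 and 8.77. The part of neighbouring cells in the differences from nerve was not tested. Without motoneuron replicate 2 the interneuron median was 2.10 and the cholinergic median 3.15, against 1.36 and 3.14 with it. Motoneuron replicate 2 is also the array of its group with Y-linked signal.

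On the nerve side the gene furthest above motoneurons was Pmp2, a fatty acid-binding protein of peripheral myelin. It read 3.62, 3.76 and 3.63 in the motoneuron arrays and 14.69, 14.61 and 14.77 in the nerve arrays (difference -11.02 ± 0.14; adjusted p = 2.35e-09). Egr2, the zinc finger factor that switches on the myelin programme, read 3.67, 3.13 and 3.65 in the motoneuron arrays and 14.33, 14.06 and 14.49 in the nerve arrays (difference -10.81 ± 0.21). The other 10 of the 12 largest negative differences ran from -10.99 to -10.34 and included the matrix genes Smoc2, Ogn, Mfap5, Lox, Dpt and Islr, the enzymes Car3, Ces1d and Cyp2e1, which fat or liver make in quantity, and Anxa1, an annexin. The highest motoneuron value among these 12 genes was 4.73, for Car3 in replicate 2, below the motoneuron array medians, and the lowest was 3.05, for Dpt in replicate 1. Some of these values lie at or below the 10th percentile of the motoneuron arrays and others, such as those of Car3, above it. The order among the 12 and the exact differences are therefore not settled.

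Of 20 measured genes of peripheral myelin, 15 were lower in motoneurons and none higher, with a median of -3.70 as deposited and -1.93 after centring. Cldn19, the claudin of Schwann cell loops, read 3.18, 3.41 and 3.07 in the motoneuron arrays and 13.32, 13.14 and 13.47 in the nerve arrays (difference -10.09 ± 0.18). Cd9 and Ncmap, membrane proteins of myelinating Schwann cells, differed by -7.57 ± 0.16 and -6.43 ± 0.20, and Gjb1, a gap junction protein mutated in X-linked Charcot-Marie-Tooth disease, by -4.19 ± 0.19. The remaining 5, Mbp, Mag, Cnp, Pmp22 and Cd81, did not hold a direction. These 5 were named after their values were seen, and Mbp, Mag and Cnp are also transcripts of oligodendrocytes. Mbp, the major basic protein of both kinds of myelin, read 14.34, 14.21 and 14.30 in the motoneuron arrays and 15.24, 15.33 and 15.30 in the nerve arrays, a difference of -1.01 as deposited that turned to 0.77 after centring. Among the 8 probe sets of Mbp, 3 were lower under all scalings and the other 5 were not.

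Of 25 Schwann cell regulators 19 were lower and none higher, at a median of -4.44 as deposited. Dhh, a hedgehog ligand that Schwann cells send to the perineurium, read 3.74, 4.45 and 4.16 in the motoneuron arrays and 14.29, 14.15 and 14.38 in the nerve arrays (difference -10.16 ± 0.20). Adgrg6, the receptor required for myelination to start, read 4.52, 5.31 and 3.36 in the motoneuron arrays and 13.60, 13.06 and 13.80 in the nerve arrays (difference -9.09 ± 0.44). The transcriptional coactivators Yap1 and Wwtr1 differed by -6.74 ± 0.20 and -6.09 ± 0.13, and the adhesion gene Cdh19 by -6.83 ± 0.30. Adgrg6 varied by more than 1 unit within motoneurons, where it was low, and was high in every nerve array. Of 22 markers of Schwann cells that are immature, in repair or without myelin, 5 were higher and 7 lower. The shares of all genes were 18.9% and 20.2%. Higher were Olig1 (4.24 ± 0.16), Shh (3.52 ± 0.24), Bdnf (3.21 ± 0.25) and L1cam (0.98 ± 0.12), which neurons or central glia also express, and the adhesion molecule Mcam. Lower were Scn7a, Atf3 (-4.53 ± 0.25), Tnc (-4.39 ± 0.23), the neurotrophin receptor Ngfr (-4.39 ± 0.35), Gfra3, Ednrb and Itga4. Mcam, Ednrb and Itga4 were named after their values were seen.

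All 31 collagen and fibroblast genes were lower, at a median of -7.23. Col3a1, a fibrillar collagen of the endoneurium, read 4.85, 4.99 and 5.29 in the motoneuron arrays and 14.83, 14.83 and 14.76 in the nerve arrays (difference -9.76 ± 0.15). Col6a1 and Lox, a microfibrillar collagen and the enzyme that cross-links collagen, differed by -10.27 ± 0.24 and -10.67 ± 0.17. Of 22 basal lamina genes 16 were lower, with Lama4 at -8.44 ± 0.13, the nidogens Nid1 and Nid2 at -8.15 ± 0.32 and -6.52 ± 0.22, and Hspg2, perlecan, at -6.81 ± 0.14. Col4a1 read 8.41, 8.99 and 8.44 in the motoneuron arrays and 14.85, 14.80 and 14.83 in the nerve arrays, so motoneuron samples kept a level above their array medians.

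The perineurium, a sheath of flattened cells joined by tight junctions, was represented by 9 of 10 lower genes. Krt19 read 4.49, 4.71 and 4.35 in the motoneuron arrays and 13.56, 13.47 and 13.48 in the nerve arrays (difference -8.99 ± 0.16). Cldn1, Lypd2, Mpzl2 and Itgb4 differed by -7.91 ± 0.38, -8.08 ± 0.14, -9.84 ± 0.23 and -6.28 ± 0.25, and Ocln, Tjp1, Gli1 and Ptch1 by -3.70, -3.51, -5.18 and -2.68. Hhip, a hedgehog antagonist, held no direction (-1.69 as deposited, 0.09 after centring).

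Vessels and immune cells were nearly uniform. Of 24 genes of endothelium and mural cells 23 were lower, with Vwf at 5.49, 5.68 and 5.11 in the motoneuron arrays and 13.29, 13.06 and 12.83 in the nerve arrays (difference -7.64 ± 0.20) and the smooth muscle genes Acta2 and Tagln at -8.00 ± 0.19 and -7.99 ± 0.11. All 24 macrophage and microglia genes were lower. Mrc1, the mannose receptor of resident macrophages, read 4.05, 4.63 and 4.46 in the motoneuron arrays and 13.15, 13.30 and 13.17 in the nerve arrays (difference -8.82 ± 0.19), and Cd163, Cd74 and H2-Ab1, a scavenger receptor and parts of class II antigen presentation, differed by -9.33 ± 0.25, -8.65 ± 0.13 and -9.59 ± 0.21. Adgre1, a surface receptor of tissue macrophages, read 4.91, 2.99 and 3.74 in motoneurons and was lowest in replicate 2. In the motoneuron arrays the list means were 6.23 to 6.42 for vessels and 6.42 to 6.76 for macrophages, near the array medians of 6.54 to 6.59.

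All 8 mast cell genes were lower, and so were 12 of 13 adipocyte genes. Cpa3, a mast cell protease, read 4.14, 3.98 and 4.09 in the motoneuron arrays and 11.64, 12.59 and 11.42 in the nerve arrays (difference -7.81 ± 0.30). Adipoq, the hormone adiponectin of fat cells, read 4.24, 3.81 and 5.12 in the motoneuron arrays and 14.44, 14.85 and 14.18 in the nerve arrays (difference -10.10 ± 0.33). The other mast cell genes were Mcpt4 (-8.71 ± 0.32), Cma1 (-7.85 ± 0.28), Tpsb2 (-7.44 ± 0.33) and Tpsab1 (-3.31 ± 0.19), which encode proteases, Ms4a2 (-4.46 ± 0.34), a chain of the IgE receptor, the growth factor receptor Kit (-3.86 ± 0.18) and Hdc (-3.27 ± 0.26), which makes histamine. Cpa3 and Adipoq were highest in nerve replicate 2 and lowest in nerve replicate 3. That order held over the lists: replicate 2 was the highest nerve array for all 13 adipocyte genes and 7 of 8 mast cell genes, against 7126 of all 18193 genes. The list means were 12.81, 13.28 and 12.11 for fat and 10.01, 10.54 and 9.70 for mast cells. Retn, Lpl, Cidec and Slc2a4, the last the insulin-regulated glucose transporter of fat and muscle, differed by -9.70 ± 0.17, -9.26 ± 0.54, -8.87 ± 0.30 and -8.11 ± 0.35. The part of fat and mast cells in other differences was not tested.

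Skeletal muscle genes were lower in 16 of 22 cases and higher in 2. Tnnt3, fast troponin T, read 4.13, 5.32 and 4.42 in the motoneuron arrays and 13.18, 12.04 and 12.61 in the nerve arrays (difference -7.99 ± 0.37). Myh4, a fast myosin, read 12.07, 10.24 and 11.74 in nerve, where replicate 2 was lowest. The same array was lowest for 15 of the 22 genes, against 6080 of all 18193 genes. The 2 higher genes were Myh7, slow myosin, at 10.40, 9.95 and 10.46 in the motoneuron arrays and 6.85, 6.91 and 6.78 in the nerve arrays (difference 3.42 ± 0.19), and Actn2, an actinin of the Z-disc that is also found at synapses, at 1.78 ± 0.24. The muscle list means of the wild type nerve arrays were 12.71, 8.36 and 11.33, and those of the knockout nerve arrays 10.03, 9.23 and 9.85, so the wild type arrays were further apart.

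**Figure D3:**
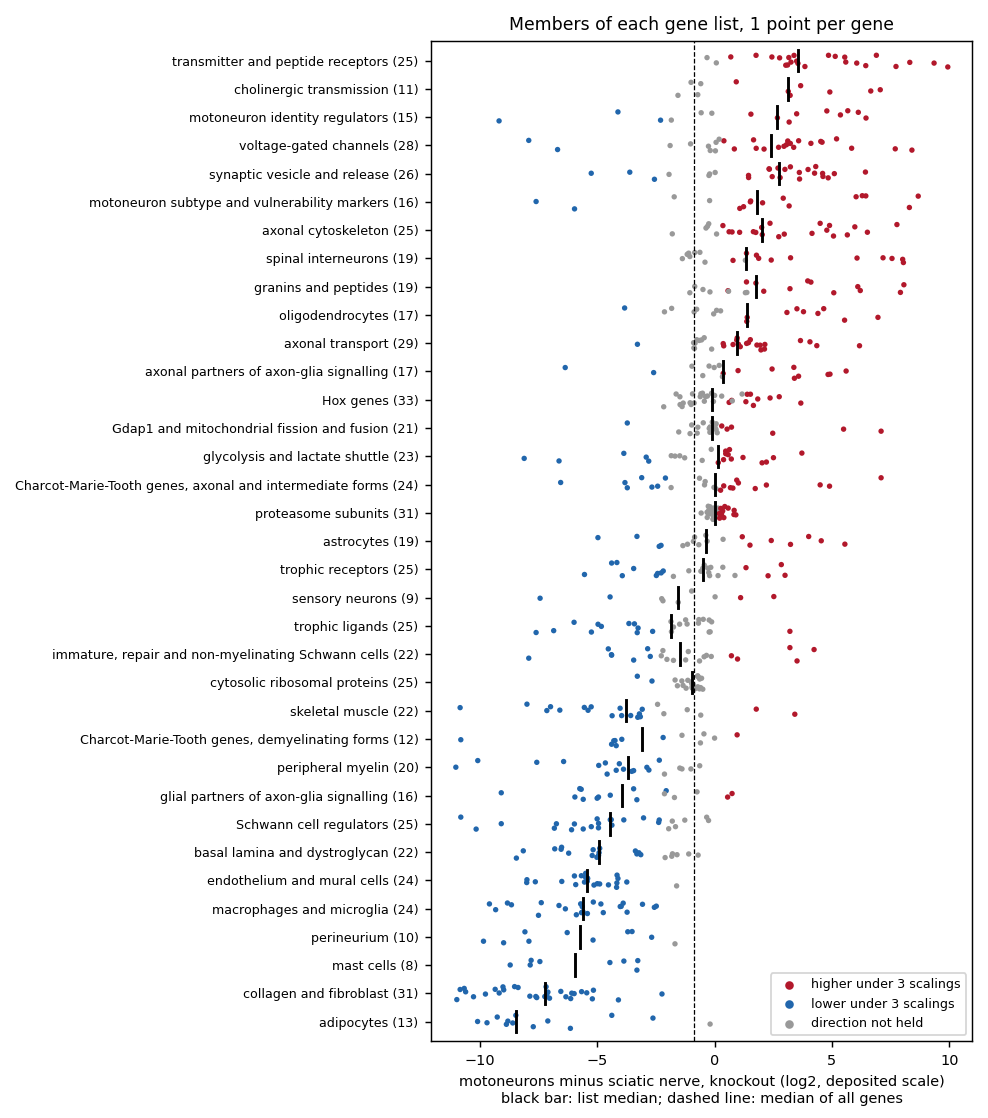
Motoneurons minus nerve in knockout mice (log2, deposited scale, horizontal axis) for the measured genes of each list, 1 point per gene, with the number measured in brackets; red and blue points held their direction under 3 scalings, grey points did not, black bars are list medians and the dashed line is the median of all genes at -0.86. Transmitter receptors have the highest list median (3.55) and adipocyte genes the lowest (-8.47), and all 31 collagen and fibroblast genes lie on the nerve side.

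A list of 34 genes with neuronal or widely expressed versions had 15 higher and 9 lower members, against 18.9% and 20.2% of all genes. Pairs within it were not counted. Snap25, a membrane-fusion protein of neurons, read 14.71, 14.75 and 14.67 in the motoneuron arrays and 10.40, 9.41 and 9.78 in the nerve arrays (difference 4.84 ± 0.21), and its widely expressed relative Snap23 6.80, 5.78 and 6.32 in the motoneuron arrays and 11.19, 11.51 and 11.56 in the nerve arrays (difference -5.12 ± 0.26). Elavl4, a neuronal RNA-binding protein, differed by 6.34 ± 0.22. Lower were Ptbp1 (-4.74 ± 0.26), which represses neuronal splicing, the widely expressed vesicle protein Vamp3 (-2.95) and the calponin Cnn2 (-6.40). Of the 3 probe sets of Ptbp1, 1 was lower. Kinesin light chain Klc1 showed both directions in 1 gene: its brightest probe set read 13.93, 14.06 and 13.91 in the motoneuron arrays and 9.67, 9.43 and 9.72 in the nerve arrays, a difference of 4.36 ± 0.10, and another read 8.33, 7.62 and 7.69 in motoneurons and 12.18, 11.96 and 12.09 in nerve, a difference of -4.20. Of 9010 genes with several probe sets, 353 (3.92%) had probe sets that held in opposite directions, and the value of such a gene depends on the probe set taken.

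Axons and Schwann cells signal to each other through surface and secreted partners, and these were set side by side. Nrg1, the axonal growth factor that controls myelin thickness, read 9.84, 10.05 and 9.57 in the motoneuron arrays and 4.49, 4.93 and 5.54 in the nerve arrays (difference 4.84 ± 0.29). Its Schwann cell receptor Erbb3 read 8.54, 7.07 and 8.62 in the motoneuron arrays and 13.78, 13.29 and 13.95 in the nerve arrays (difference -5.60 ± 0.38), and the co-receptor Erbb2 differed by -4.95 ± 0.19. Ligand and receptors were thus on opposite sides. Adam22, an axonal receptor, was higher (1.63 after joint quantile normalization), and Lgi4, its Schwann cell ligand, was lower, at -4.44. At the paranode the axonal proteins Cntn1 and Cntnap1 were higher by 3.58 ± 0.26 and 3.40 ± 0.22, and Nfasc, which has axonal and glial forms, was lower at -2.06 ± 0.11. Cntn2 and Cntnap2 of the juxtaparanode were higher by 4.92 ± 0.18 and 5.61 ± 0.16. Of 17 axonal partners 9 were higher and 2, Jag1 and Chl1, lower (-6.36 ± 0.18 and -2.59 ± 0.15). Of 16 glial partners 11 were lower and 2, Ank2 and Nrcam, higher by 0.75 and 0.56. Both of the last have a further probe set that was lower, at -4.28 for Ank2 and -3.06 for Nrcam, so their direction depends on the probe set.

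Not every pair divided this way. Cadm3, the axonal nectin-like protein, held no direction by its brightest probe set (-0.23 as deposited, 1.54 after centring). Another of its 3 probe sets was higher (0.66 as deposited), so its direction depends on the probe set. Its glial partner Cadm4 was lower, at -3.45 ± 0.18. Prnp, the axonal ligand of Adgrg6, held none either, at -0.50 as deposited and 1.28 after centring. Jag1 and its receptor Notch1 were both lower (-6.36 and -5.00). For lactate, which glia are thought to pass to axons, the glial exporter Slc16a1 held no direction (-1.27) and the neuronal importer Slc16a7 was lower, at -2.80 ± 0.37.

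Trophic support runs from nerve and muscle to the motoneuron. Ret, the signalling receptor for GDNF, read 13.43, 13.42 and 13.41 in the motoneuron arrays and 10.38, 10.07 and 11.27 in the nerve arrays (difference 2.85 ± 0.26), nearly 1 level in motoneurons and highest of the nerve arrays in replicate 3. Gdnf itself read 3.52, 3.56 and 3.82 in the motoneuron arrays and 5.09, 5.34 and 5.73 in the nerve arrays, low in both tissues, with no direction held. Igf1 was lower, at -4.96 ± 0.27, and so was its receptor Igf1r, at -2.43 ± 0.19, with 2 of its 5 probe sets lower. Met, the receptor for hepatocyte growth factor, was lower, at -3.93 ± 0.11, in 1 of its 2 probe sets. Hgf held no direction by its brightest probe set, and 1 of its 3 was lower. Mdk, midkine, was lower at -3.29 ± 0.15, and its receptor Alk higher at 2.28 ± 0.26. Cntfr, Ptn, pleiotrophin, and its receptor Ptprz1 held no direction by their brightest probe sets (0.35, -0.23 and 0.87 as deposited). Of the 3 probe sets of Ptprz1, 1 was higher. Gfra2, the receptor for neurturin, was lower, at -2.19 ± 0.11, but only in 1 of its 5 probe sets. The ligand Nrtn held no direction (-0.19). Over the lists, 4 of 25 trophic receptors were higher and 9 lower, against 18.9% and 20.2% of all genes. Of 25 ligands 1, Bdnf, was higher and 11 were lower, among them Fgf7 (-6.85 ± 0.23), Bmp4 (-5.99 ± 0.37) and Lif (-4.82 ± 0.31).

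Ntrk2, the receptor for BDNF, had 8 probe sets, of which 4 were higher and 4 lower. The brightest on average read 9.62, 9.76 and 9.70 in the motoneuron arrays and 11.89, 12.44 and 11.58 in the nerve arrays (difference -2.27 ± 0.20). Another read 12.43, 12.49 and 12.45 in motoneurons and 7.15, 7.55 and 7.14 in nerve, a difference of 5.18 ± 0.15. The gene is known to make a full-length kinase form and truncated forms without the kinase, and which form each probe set reads was not analysed here. Ntrk3, the receptor for neurotrophin-3, was split likewise, with 2 of 8 probe sets higher, 1 lower and 5 without a held direction.

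Gdap1 itself was far higher in motoneurons of the knockout. The design text places the probe sets in exons 4 and 6, while exon 5 was deleted, so their signal is no check of the deletion. The brightest read 13.35, 13.23 and 13.36 in the motoneuron arrays and 6.54, 6.12 and 5.99 in the nerve arrays (difference 7.10 ± 0.17; adjusted p = 5.8e-09), and 2 others differed by 6.08 ± 0.21 and 4.38 ± 0.20. The fourth read 5.20, 4.76 and 5.42 in motoneurons and 5.52, 5.44 and 5.59 in nerve, with a difference of -0.39 ± 0.22 and an adjusted p of 0.122. Gdap1l1, the close relative of Gdap1, read 12.12, 12.19 and 12.23 in the motoneuron arrays and 6.62, 6.68 and 6.75 in the nerve arrays (difference 5.50 ± 0.14), and its other probe set differed by 6.25 ± 0.16. In wild type mice the brightest Gdap1 probe set differed by 7.41 between the tissues. Of 21 genes of mitochondrial fission and fusion, Gdap1 and its relative included, 6 were higher and 1, the actin nucleator Inf2, was lower (-3.72 ± 0.18). Gdap1 and Gdap1l1 are among the 6, and of all genes 18.9% were higher and 20.2% lower. The other higher genes were Mtfp1 (2.48 ± 0.21), Dnm1l, Opa1 and Usp30. Fission factors such as Fis1 and Mff and both mitofusins held no direction; these were named after their values were seen.

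Genes mutated in Charcot-Marie-Tooth disease lay on both sides. Of 12 genes of demyelinating forms 7 were lower and 1, the lipid phosphatase Fig4, was higher (0.96 ± 0.13). Ndrg1, Litaf, Sbf2 and Sh3tc2, a stress-response gene and genes of endosomal and lipid traffic in Schwann cells, were lower, at -3.95 ± 0.09, -4.29 ± 0.08, -4.24 ± 0.11 and -4.39 ± 0.20. Of 24 genes of axonal and intermediate forms 11 were higher, among them Gdap1, Nefl and Nefh, and 7 were lower, among them Mme (-6.56 ± 0.23), Trpv4 (-3.82 ± 0.18) and Lmna (-3.10 ± 0.14). Of the 5 probe sets of Lmna, 2 were lower. Against a background of 18.9% higher and 20.2% lower, the demyelinating list has its larger count on the nerve side and the axonal list has counts on both.

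Genes of sugar metabolism lay on both sides. Of 23 genes of glycolysis and lactate transport 12 were higher and 5 lower, against 18.9% and 20.2% of all genes. Aldoc, the brain aldolase, read 14.05, 13.82 and 14.07 in the motoneuron arrays and 10.43, 9.87 and 10.47 in the nerve arrays (difference 3.72 ± 0.16). Lower were Hk2 (-6.63 ± 0.30), Slc2a4, Eno3 (-3.87 ± 0.21), Pgam2 (-2.91 ± 0.23) and Slc16a7, of which Eno3 and Pgam2 are muscle isoforms.

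Of 33 Hox genes, which mark position along the body axis, 10 were higher and none lower, against 18.9% and 20.2% of all genes. As deposited 14 were called lower, and the list median was -0.13, against 1.19 after joint quantile normalization and 1.65 after centring. No position was derived from them. Hoxb5 read 11.82, 12.26 and 12.12 in the motoneuron arrays and 9.01, 8.49 and 7.69 in the nerve arrays (difference 3.68 ± 0.30), Hoxb6 differed by 2.76 ± 0.18, and Hoxc8 by 2.37 ± 0.12. Hoxa9 read 13.08, 12.74 and 13.08 in the motoneuron arrays and 10.88, 11.80 and 10.69 in the nerve arrays (difference 1.84 ± 0.26). The remaining 23 Hox genes held no direction, among them Hoxa11 at 3.69, 5.28 and 4.22 in the motoneuron arrays and 6.25, 7.21 and 6.22 in the nerve arrays, where motoneuron replicate 2 was the highest of its group. Sensory neurons, whose axons also run in the nerve, were tested by 9 genes. Pou4f1 and P2rx3 were higher (2.53 ± 0.30 and 1.11 ± 0.23), Piezo2 and Trpv1 were lower (-7.43 ± 0.51 and -4.45 ± 0.33), and Avil (-2.25), Scn11a (-2.20), Scn10a (-1.55), Runx3 (-0.98) and Trpa1 (0.02) held no direction. Only 1 of the 3 probe sets of P2rx3 was higher, and with their mean its call was lost (adjusted p = 0.981). Of the 2 probe sets of Runx3, 1 was lower. Piezo2, a mechanosensitive channel, read 14.22, 13.91 and 14.20 in nerve, near the top of the range. Of its 2 probe sets, 1 was lower.

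Housekeeping genes show how far the scaling reaches. Of 25 ribosomal protein genes none was higher and 2, Rpl37 and Rps6, were lower, and the list median was -0.94 as deposited, -0.46 after joint quantile normalization and 0.83 after centring. Of 31 proteasome subunits 12 were higher and none lower, with a median of 0.03 as deposited, where 9 were called lower. In a split made after the values were seen, 11 of 17 subunits of the regulatory particle were higher, against 1 of 14 of the catalytic core. Psmd12 read 13.61, 13.59 and 13.57 in the motoneuron arrays and 12.68, 12.88 and 12.49 in the nerve arrays (difference 0.91 ± 0.09), and Psma4 read 12.16, 12.19 and 12.13 in the motoneuron arrays and 12.77, 12.81 and 12.61 in the nerve arrays, with a difference of -0.57 as deposited and 1.21 after centring. Among the nerve arrays, replicate 2 was the highest for 27 of the 31, against 7126 of all 18193 genes.

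**Figure D4:**
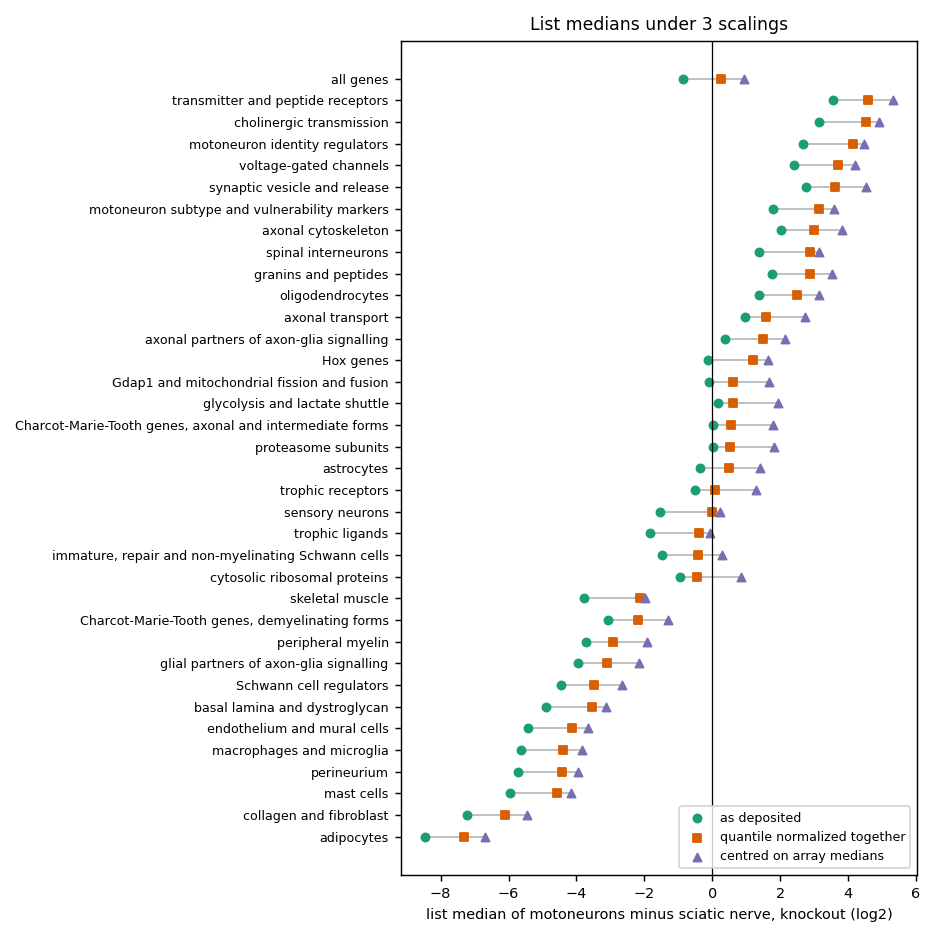
Median difference of each list (motoneurons minus nerve in knockout mice, log2) on the deposited values (circles), after quantile normalization of the 6 arrays together (squares) and after centring on array medians (triangles), with the median of all genes at the top. The medians of the receptor list (3.55, 4.59 and 5.33) stay above 0 and those of the fibroblast list (-7.23, -6.11 and -5.46) below it. Medians that change sign include those of all genes, of ribosomal protein genes and of Hox genes.

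The tissue difference was close to that of wild type mice. Of the 3438 genes higher in knockout motoneurons 2963 were also higher in wild type (86.2% of the knockout list and 92% of the 3219 of wild type), and of the 3684 lower genes 3330 were (90.4% and 92.4% of 3605). No gene held opposite directions in the 2 genotypes. Across the 18193 genes the differences correlated at 0.983, a description over genes that share each array and its processing. The median size of the change between genotypes was 0.22, against 1.20 for the tissue difference itself. Trhr differed by 10.08 in wild type, Pmp2 by -11.13, Slc18a3 by 6.54 and Mnx1 by 6.30.

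The difference of the differences, tested over all 12 arrays, was past the threshold for 0 of 45037 probe sets (0%; limma, smallest adjusted p = 0.173), with 3398 at an unadjusted p under 0.05. The smallest p-value belonged to Cav1, caveolin of endothelium, fat and Schwann cells. Its tissue difference was -5.79 in wild type and -7.44 in knockout (change -1.65 ± 0.22). Vxn, a neuronal gene, differed by 5.46 in wild type and 3.46 in knockout (adjusted p of the change = 0.205). Cers5, Asap1, Idh1, Nap1l2, Phactr2 and Ybx3 followed with adjusted p-values of 0.325 to 0.517. Leaving out motoneuron wild type replicate 3 gave 238 calls, 132 above and 106 below 0, and leaving out motoneuron wild type replicate 1 or nerve wild type replicate 2 gave 2 each. Of 22 skeletal muscle genes 20 had a change above 0, with a median of 1.20 and a smallest adjusted p of 0.6, against 9584 of all 18193 genes, beside the uneven muscle levels of the wild type nerve arrays given above. Other lists were one-sided too: a change above 0 was found for 2 of 16 glial partners, 4 of 20 myelin genes, 4 of 24 vessel genes, 4 of 19 astrocyte genes and 23 of 31 proteasome genes, with no single gene past the threshold.

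**Figure D5:**
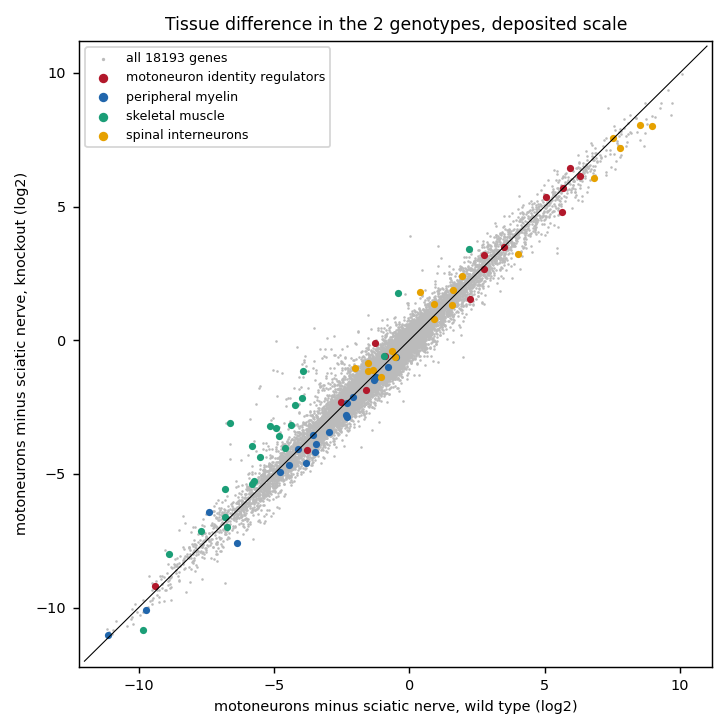
Motoneurons minus nerve (log2, deposited scale) in wild type (horizontal axis) and in knockout mice (vertical axis), 1 grey point for each of 18193 genes, with 4 lists in colour and the line of equality. Of the skeletal muscle genes 20 of 22 lie above the line, and of the myelin genes 4 of 20.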

How the data were processed

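RNA of motoneurons and sciatic nerve was measured on Affymetrix 3' expression arrays, with 20 ng amplified per sample, per the labels. The deposited log2 values, 1 per probe set, were made with Affymetrix Expression Console 1.1 per the submitters' processing notes; how signals were summarized and background-corrected is not given in the sources used here. Array quantiles nearly coincided within a tissue but not between tissues, so levels of the tissues are not on 1 scale. After 64 control probe sets were left out, 45037 were fitted with limma 3.58.1 (lmFit and eBayes with a mean trend, R 4.3.3) over the 6 knockout arrays with no covariate, and Benjamini-Hochberg adjusted p-values below 0.05 were called. The number of arrays limits the precision, and p-values measure only the spread between these samples. Platform annotation, updated through RefSeq, named genes, 18193 in all.

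The members and the 37 gene lists (800 genes, 720 of them measured) were chosen with earlier results of these data known. Genes were taken by rule: all probe sets of Gdap1 and Gdap1l1, the 12 largest held differences each way, the 6 largest of each list, up to 4 held against a list's median, all members of lists of up to 10 measured genes, all axon-glia and trophic pairs, the 8 smallest p-values of the tissue by genotype difference among genes above the median level, and sex-linked transcripts. The rule took 277 genes; the text gives values for a part of them, chosen after the values were seen, and counts the rest in their lists. Genes outside the rule are said to be named after their values were seen. Alternatives were leaving out each array, the replicate number as a block, Xist as a covariate, brighter probe sets alone, no mean trend, array weights, a minimum difference of 1, all 12 arrays in 1 fit and other scalings. Same-numbered arrays of the 2 tissues did not deviate together, so the numbers were not taken to pair samples.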

Additional observations from a re-analysis of the deposited data

How the results depend on the processing

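The count of 37262 probe sets called in the knockout became 19115 among brighter probe sets and 20735 with a minimum difference of 1, and the 17849 that held their direction became 9973 and 9517, where fewer probe sets or a larger difference were asked for. Leaving out 1 array gave 35789 to 36715 calls and 16905 to 17463 held, with 93.4% to 95.2% of the held probe sets kept and none opposite. For the tissue by genotype difference, leaving out 1 array gave 0 to 238 calls: 238 without motoneuron wild type replicate 3, and 2 each without motoneuron wild type replicate 1 and nerve wild type replicate 2; the cause was not tested.

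The replicate block gave 36960 calls, 17761 held and 0 for the tissue by genotype difference (3508 at an unadjusted p under 0.05); the correlations of same-numbered arrays were -0.04, 0.05 and 0.05, and it moved none of these counts by over 1.5 times.

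Of the 211 genes with printed values, 187 kept their direction and side of the threshold under all 10 alternatives run for single genes, and the replicate block moved the calls of Eif2s3y and Ptprz1. Reversals after centring were Cadm3 (1.54), Chat (1.19), Gdnf (0.03), Hhip (0.09), Mbp (0.77), Nrtn (1.59), Prnp (1.28), Psma4 (1.21), Ptn (1.55), Runx3 (0.80), Scn10a (0.23), Slc16a1 (0.50) and Xist (1.14), and after joint quantile normalization Cadm3 (0.26), Chat (0.98), Hhip (0.19), Nrtn (1.62), Psma4 (0.05), Ptn (0.45), Runx3 (0.91) and Xist (0.56), as both scalings move the median of all genes. With the mean of all probe sets of a gene, Ank2 (-0.14), Cadm3 (0.13), Nrcam (-0.40) and Ntrk2 (0.32) reversed, and P2rx3 lost its call (adjusted p = 0.981). Leaving out 1 array moved Xist from -2.26 to 1.82 (1.82 without nerve replicate 3 and 1.27 without motoneuron replicate 2) and Trpa1 from -0.15 (without motoneuron replicate 1) to 0.19.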
